A study of Mus musculus with 18 samples.

Results

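The matrix metalloproteinases (MMPs) of macrophages and their tissue inhibitors (TIMPs) were followed at the mRNA level in bone marrow-derived macrophages (BMDMs), as 10 genes chosen by name: Mmp2, Mmp8, Mmp9, Mmp12, Mmp13, Mmp14, Mmp19, Timp1, Timp2 and Timp3. All 10 were found among the 21734 protein-coding genes of the count table, in 18 libraries that form 6 groups of 3. The mice were of mixed 129/B6 background and 6 to 7 months old, with 3 mice of each genotype. They were wild-type (WT), carried no miR-146a (KO), or were homozygous for a flipped allele (3F) whose mature miR-146a keeps its 5′ part, seed included, while its 3′ part is exchanged for the sequence of the opposite strand. Marrow from femurs and tibias was grown with 10 ng/ml M-CSF for 8 to 9 days, and the cells received fresh medium without LPS (resting) or with 1 ng/ml LPS and were harvested after 16 h. LPS, a glycolipid of the bacterial outer membrane, is sensed by TLR4. The KO and 3F alleles are carried by the whole animal and not by macrophages alone.

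MMPs are zinc-dependent proteases that cleave collagen, elastin, gelatin and other matrix proteins as well as cytokines and receptors. They are made as inactive precursors, and their activity is set by transcription, by removal of the propeptide (by furin, plasmin or other MMPs) and by TIMPs, which bind the active site one to one. Macrophages are a major source of MMP12, the macrophage elastase, and use the membrane-anchored MMP14 to degrade collagen at the cell surface. MiR-146a is induced by LPS and damps TLR4 signalling, and Irak1 and Traf6 were its first described targets. The study saw more IRAK1 protein in KO BMDMs after LPS, but no dysregulated TRAF6 in its cell cultures.

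The microRNA of the WT and the altered strand of the 3F allele are shown because they are what the genotypes differ in. The first is the mature sequence in RefSeq, from chr11:43374435-43374456 on the minus strand of GRCm38.p6, and the second is the mimic strand the study designed for the 3F microRNA. Capitals mark the seed, bases 2 to 8.

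miR-146a-5p: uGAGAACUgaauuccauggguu
3′F mimic strand: uGAGAACUgaauaagugucc

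The 20 bases of the mimic differ from miR-146a-5p at 8 positions, all from base 13 to base 20. None of the 10 genes had a 6mer, 7mer or 8mer match to that seed in its longest annotated 3′ UTR, windows that ran from 103 bases for Timp1 to 3604 bases for Timp3. Among 11308 tested genes with such a window, median length 1164 bases, 20.6% held a 7mer or 8mer match. These letters being absent from a window says nothing of other sites.

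Promoter windows, 250 bases before to 50 after the start in RefSeq (GRCm38.p6), were given for 7 of the 10 genes, and none was matched for Mmp2, Mmp9 and Mmp19. They were searched on both strands for TGANTCA (the AP-1 motif), AGGAAG (the PEA3 or ETS motif) and TATAAA, and no matches overlapped. TGANTCA occurred in the windows of 2 of 7 members, Mmp12 and Mmp13, and in 7.81% of 32851 windows of all genes. AGGAAG occurred for 6 of 7, the exception being Timp2, and in 35.4% of all windows. TATAAA occurred for 3 of 7, Mmp8, Mmp12 and Mmp13, and in 13.6% of all windows. The windows of Mmp14 and Timp1 are printed as the pair with the largest LPS responses among the members, and those of Mmp12 and Mmp13 as neighbours on chromosome 9 with an AP-1 match. Capitals mark the matches, and of 2 annotated starts of Mmp12 the downstream one is shown.

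Mmp14 chr14:54431348-54431647 plus strand: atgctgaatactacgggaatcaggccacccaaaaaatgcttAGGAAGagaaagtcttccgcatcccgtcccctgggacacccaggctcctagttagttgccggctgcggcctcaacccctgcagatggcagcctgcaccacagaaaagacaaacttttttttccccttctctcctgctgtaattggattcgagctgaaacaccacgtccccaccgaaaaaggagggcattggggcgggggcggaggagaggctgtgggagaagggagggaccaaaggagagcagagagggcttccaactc
Timp1 chrX:20869916-20870215 plus strand: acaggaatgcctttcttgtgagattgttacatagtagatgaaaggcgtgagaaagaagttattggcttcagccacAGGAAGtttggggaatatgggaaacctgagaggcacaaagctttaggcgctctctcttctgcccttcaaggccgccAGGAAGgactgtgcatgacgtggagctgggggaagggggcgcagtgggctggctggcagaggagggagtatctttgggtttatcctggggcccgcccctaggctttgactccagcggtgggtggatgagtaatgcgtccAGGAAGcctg
Mmp12 chr9:7347124-7347423 plus strand: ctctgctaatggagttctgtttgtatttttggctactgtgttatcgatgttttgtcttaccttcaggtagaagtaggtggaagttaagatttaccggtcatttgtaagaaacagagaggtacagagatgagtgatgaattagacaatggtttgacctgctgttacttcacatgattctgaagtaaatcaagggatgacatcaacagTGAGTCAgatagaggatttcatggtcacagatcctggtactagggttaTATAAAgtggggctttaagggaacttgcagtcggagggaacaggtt
Mmp13 chr9:7272264-7272563 plus strand: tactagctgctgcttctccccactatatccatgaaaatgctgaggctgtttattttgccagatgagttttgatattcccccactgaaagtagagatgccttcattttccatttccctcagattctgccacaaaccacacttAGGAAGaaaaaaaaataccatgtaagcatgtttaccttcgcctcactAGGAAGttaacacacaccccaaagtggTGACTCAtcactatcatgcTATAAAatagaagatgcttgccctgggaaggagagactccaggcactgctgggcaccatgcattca

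The AP-1 match began 44 bases before the start in Mmp12 and 35 bases before it in Mmp13. In Mmp13, AGGAAG began 109 and 62 bases and TATAAA 16 bases before the start. Neither Mmp14 nor Timp1 held an AP-1 or TATA match, while Timp1 held 3 matches to AGGAAG and Mmp14 held 1. A match is a string of letters and not evidence of binding.

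Libraries held 4071084 to 19818043 counts, and levels are in CPM, the usual counts-per-million scale, relative to the TMM-scaled size of each library. Of the 10 genes, 9 passed the filter on low counts and were tested, while Timp3 did not. A gene was called changed at an adjusted p under 0.05 by edgeR's quasi-likelihood test over all 11357 genes that passed, and errors of log2 fold changes are standard errors. MiR-146a itself is not in a table of protein-coding genes, so the KO could not be checked on its own target here. Macrophage markers were high throughout, with Lyz2 at 26460 CPM or more and Csf1r at 992 CPM or more in every library. With LPS 5 of 9 macrophage markers were called higher in WT, 3 in KO and 5 in 3F, and none was called lower. Of 6 osteoclast markers 4 were tested, and in WT 1 was called higher with LPS and 0 lower. The 1 was Acp5, which rose from 4.44 ± 1.18 to 38.9 ± 9.83 CPM in WT (SD, n = 3, log2 fold change 3.15, adjusted p = 8.55e-07). Dcstamp, another of them, averaged 13.1 CPM in resting WT and 11.6 CPM with LPS. The part of these markers in the members' LPS responses was not tested. Lymphocyte and dendritic cell markers summed to at most 0.702 and 3.75 CPM, and the neutrophil marker Ly6g and the stromal markers Lum and Thy1 did not exceed 0.128, 0.0733 and 0.0564 CPM. Other markers of both lists were detected: S100a8, also made by macrophages, averaged 10.5 CPM in resting WT to 37.8 CPM in KO with LPS, and summed levels reached 68.6 CPM for 11 neutrophil and 11.5 CPM for 10 stromal markers. In bulk RNA, fewer cells of a type and less RNA per cell cannot be told apart. One library, KO resting replicate 3, stood apart from its group: the Fc receptor Fcgr1 was 1136 CPM there against 236 and 206, the matrix phosphoprotein Spp1 18960 against 3988 and 4205, and the smooth muscle actin Acta2 9.88 against 0.804 and 0.459. Replicate 3 of resting 3F was the shallowest, with 4071084 counts. Member calls that changed without either are given with and without it.

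**Figure D1:**
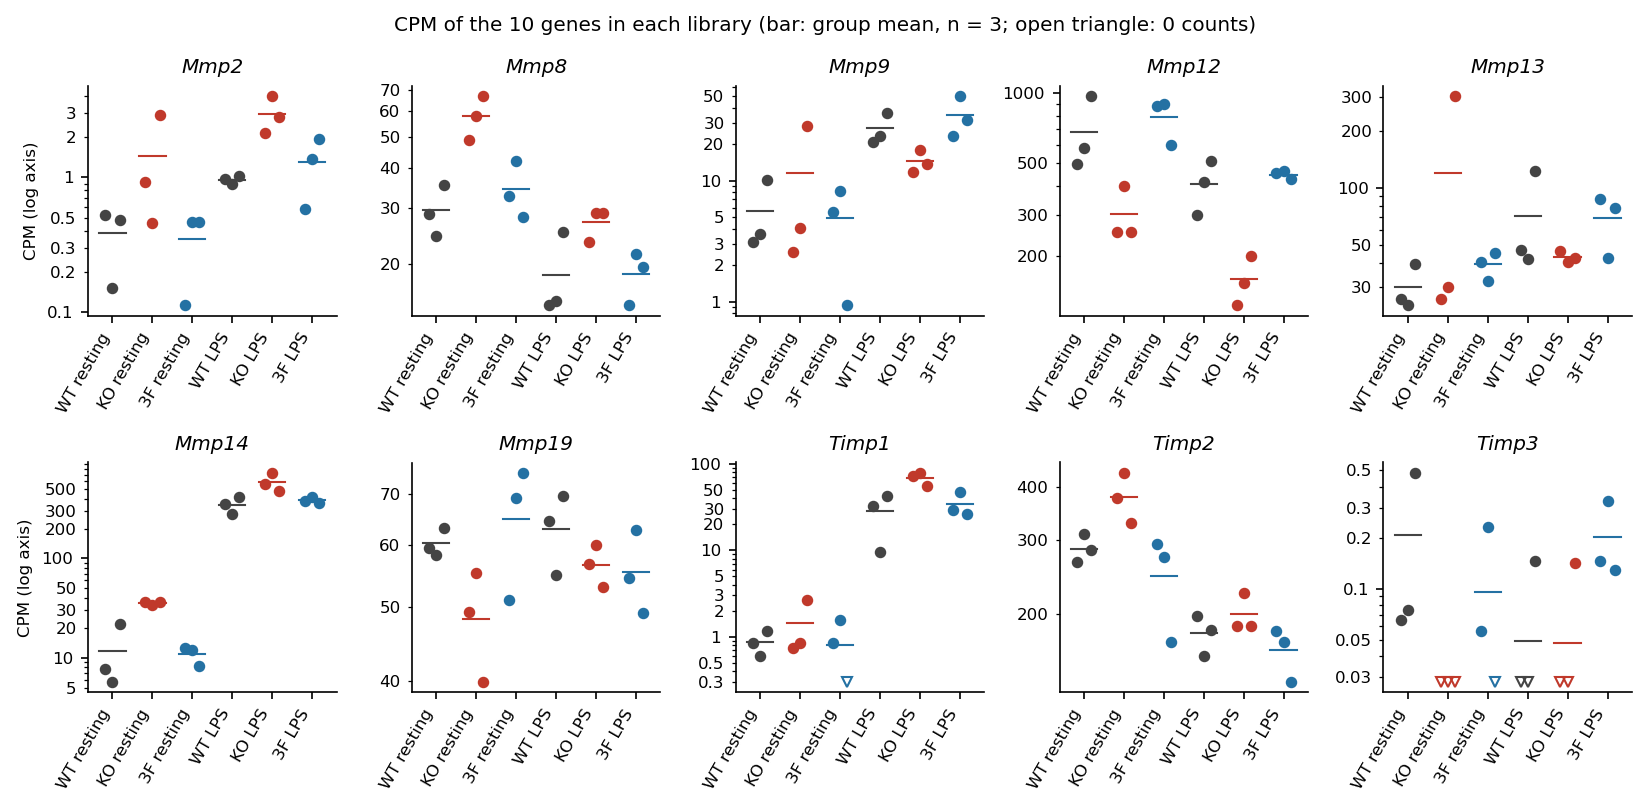
Expression of the 10 genes in every library, in CPM on a log axis, by group (grey WT, red KO, blue 3F). Points are libraries, bars are means of 3, and open triangles are libraries with 0 counts. Mmp14 and Timp1 with LPS lie above every resting library in each genotype, and KO points of Mmp12 lie below the WT and 3F points of the same state.

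Mmp14, the collagenase anchored in the membrane, and Timp1, a secreted inhibitor, rose with LPS by more than any other member, 16.5-fold to 53.5-fold, in all 3 genotypes. Mmp8, the collagenase first described in neutrophils, and Timp2 fell in all 3, and calls for the other genes differed between genotypes or were absent. In WT, 3 of 9 tested members were called higher, against 16.3% of all genes tested, and 2 were called lower, against 12.3%. In KO, 2 were higher (14.3% of genes) and 3 lower (12.6%). In 3F, 4 were higher (17.2% of genes) and 3 lower (14%). The median log2 fold change of the 9 tested members was 1.24 in WT, 0.23 in KO and 0.82 in 3F, where those of all genes tested were 0.02, 0.02 and −0.01.

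Mmp14 (MT1-MMP), which activates pro-MMP2 with the help of TIMP2 and cleaves fibrillar collagen, lies on chr14:54431612-54445364. Resting WT libraries held 7.68, 5.72 and 21.8 CPM and WT libraries with LPS held 352, 279 and 414 CPM. KO libraries went from 36.4, 34.1 and 36.8 to 565, 729 and 475 CPM. 3F libraries went from 12.4, 11.9 and 8.19 to 376, 421 and 366 CPM. In each genotype the lowest library with LPS was far above the highest resting one. The log2 fold change was 4.91 ± 0.38 in WT (30.1-fold, adjusted p = 2.08e-07), 4.04 ± 0.36 in KO (16.5-fold, adjusted p = 7.31e-07) and 5.12 ± 0.39 in 3F (34.8-fold, adjusted p = 1.35e-07). The KO response was lower than that of WT by 0.87 ± 0.46 on the log2 scale, which was not called (95% interval −1.85 to 0.11, adjusted p = 1.00).

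Timp1, a secreted inhibitor of most MMPs, lies on chrX:20870166-20874735. It was close to the detection limit in resting cells, with 0.854, 0.602 and 1.16 CPM in WT, 0.742, 0.841 and 2.69 in KO and 0.847, 1.56 and 0 in 3F. The 0 is the shallow library, in which 3 counts would be 0.702 CPM. With LPS the WT libraries held 32.7, 9.56 and 43.0 CPM, the KO libraries 73.3, 78.8 and 56.1 and the 3F libraries 29.7, 47.7 and 26.2. No resting library reached the lowest library with LPS. On the log2 scale the rise was 5.04 ± 0.61 in WT (adjusted p = 1.78e-05), 5.74 ± 0.59 in KO (adjusted p = 2.54e-06) and 5.06 ± 0.60 in 3F (adjusted p = 1.42e-05).

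Mmp9 (gelatinase B, chr2:164940780-164955850), which degrades denatured and basement membrane collagen, rose in WT and 3F. WT libraries went from 3.09, 3.61 and 10.2 to 21.0, 23.6 and 36.5 CPM, and 3F libraries from 5.48, 8.29 and 0.936 to 23.2, 49.7 and 31.8 CPM. The log2 fold changes were 2.30 ± 0.72 (adjusted p = 0.0243) and 2.65 ± 0.72 (adjusted p = 0.0111), and groups did not overlap in either genotype. KO libraries held 2.60, 4.05 and 28.4 CPM at rest and 11.8, 18.1 and 13.8 with LPS, and their fold change of 0.39 ± 0.69 was not called (adjusted p = 0.724). The resting value of 28.4 is the library that stood apart. Without it the KO response was 2.14 (adjusted p = 0.00754), and the difference of KO from WT in the response went from −1.92 ± 0.99 (95% interval −4.01 to 0.17, adjusted p = 1.00) to −0.17. The WT call was lost without WT LPS replicate 3 or WT resting replicate 1 or 2 (adjusted p = 0.0828, 0.091 and 0.0961). The 3F response without the shallow 3F library was 2.31 (adjusted p = 0.0341).

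Mmp8 (chr9:7558456-7568485) fell with LPS in all 3 genotypes. WT libraries went from 28.6, 24.5 and 35.3 to 14.9, 15.4 and 25.1 CPM, with one library of each state crossing over. KO libraries went from 49.0, 57.9 and 66.8 to 23.4, 29.0 and 29.0 CPM, and 3F libraries from 32.7, 42.0 and 28.1 to 14.9, 21.5 and 19.6 CPM, both without overlap. On the log2 scale the change was −0.67 ± 0.22 in WT (adjusted p = 0.0291), −1.09 ± 0.21 in KO (adjusted p = 0.00121) and −0.89 ± 0.22 in 3F (adjusted p = 0.00585). The WT call was lost without WT LPS replicate 1 or 2 or WT resting replicate 1 or 3 (adjusted p = 0.127, 0.11, 0.0531 and 0.13). Of 11 neutrophil markers, 6 were tested, 1 was called higher with LPS in WT and KO and 0 in 3F, and 0 were called lower. The summed level of the 11 was 16.2 to 23.8 CPM in resting WT and 33.4 to 41.7 CPM with LPS. S100a8, also made by macrophages, was the largest part, at 10.5 CPM on average in resting WT and 23.25 with LPS. The part of these markers in the Mmp8 response was not tested.

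Mmp12 (chr9:7344381-7369499) was the most abundant member at rest in WT and 3F by CPM. It shares 157 exonic bases with Mmp1b on the other strand, and reads were counted by strand. Resting WT libraries held 495, 582 and 967 CPM and those with LPS 301, 417 and 512, and the groups overlapped. KO libraries went from 254, 401 and 255 to 124, 154 and 201 CPM and 3F libraries from 879, 902 and 598 to 453, 462 and 430 CPM, without overlap. The change on the log2 scale was −0.73 ± 0.27 in WT, just outside the threshold (adjusted p = 0.0511), −0.93 ± 0.27 in KO (adjusted p = 0.0173) and −0.82 ± 0.27 in 3F (adjusted p = 0.0284). The KO call was lost without KO LPS replicate 1 or 2 or KO resting replicate 2 (adjusted p = 0.0845, 0.0548 and 0.107). The 3F call was lost without 3F LPS replicate 1, 2 or 3 or 3F resting replicate 1 or 2 (adjusted p = 0.0723, 0.0702, 0.0795, 0.0725 and 0.083). It was kept without the shallow 3F library, with a change of −1.03 (adjusted p = 0.0147). WT passed without WT LPS replicate 3 or WT resting replicate 1 (adjusted p = 0.0425 and 0.0272). WT also passed with DESeq2's size factors, with no filter on low counts and in DESeq2's Wald test (adjusted p = 0.0454, 0.0342 and 0.0234).

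Timp2 (chr11:118301069-118355740, minus strand), the inhibitor that also bridges MMP14 and pro-MMP2, was the main inhibitor at rest and fell with LPS. WT libraries went from 265, 309 and 284 to 198, 160 and 183 CPM and KO libraries from 377, 432 and 328 to 188, 225 and 187 CPM. 3F libraries went from 293, 273 and 171 to 182, 172 and 138 CPM, where the shallow resting library overlapped the LPS group. The log2 fold change was −0.67 ± 0.18 in WT (adjusted p = 0.00929), −0.92 ± 0.18 in KO (adjusted p = 0.000948) and −0.59 ± 0.18 in 3F (adjusted p = 0.0187). The 3F call was lost without 3F LPS replicate 3 or 3F resting replicate 1 or 2 (adjusted p = 0.0864, 0.0838 and 0.0666). Without the shallow library, 3F resting replicate 3, it was kept and the change was −0.83 (adjusted p = 0.000618).

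**Figure D2:**
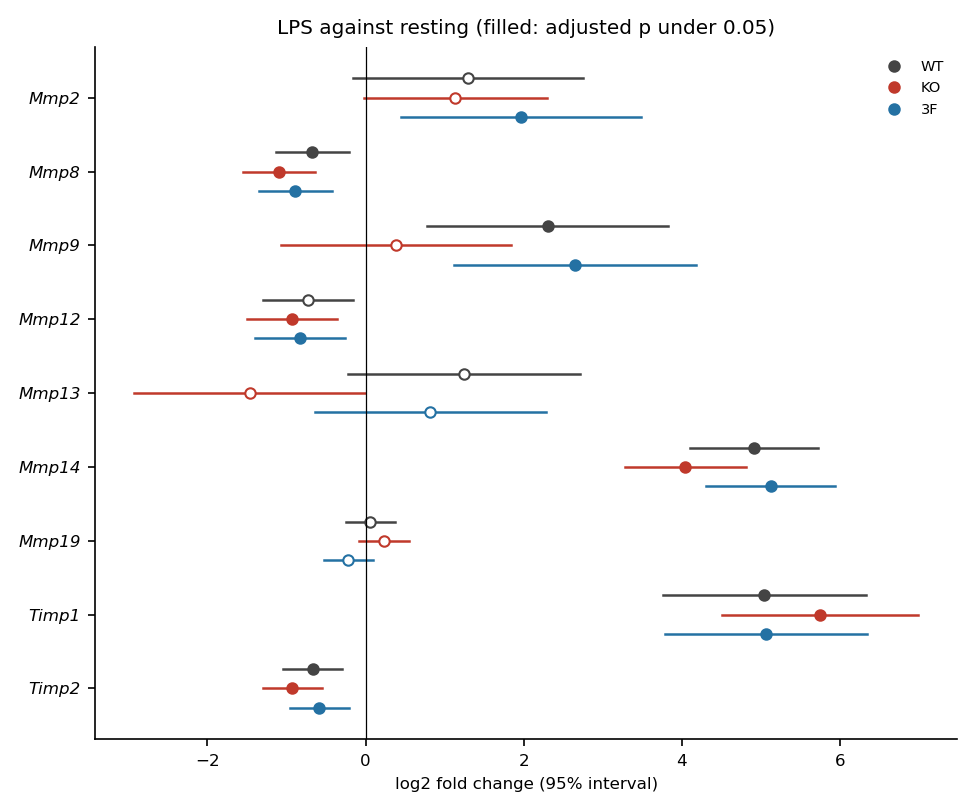
The LPS response of the 9 tested genes in each genotype, as log2 fold change against resting cells with its 95% interval (n = 3 against 3). Filled points passed an adjusted p of 0.05. Mmp14 and Timp1 lie between 4.04 and 5.74 in all genotypes, Mmp8, Mmp12 and Timp2 lie below 0, and the KO points of Mmp9 and Mmp13 rest on 1 resting library.

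Mmp19 (chr10:128790910-128800824), an MMP of macrophages and epithelia, stayed level, at 40.0 to 74.5 CPM over the 18 libraries. Its LPS log2 fold change was 0.06 in WT (95% interval −0.25 to 0.37), 0.23 in KO (−0.08 to 0.54) and −0.22 in 3F (−0.53 to 0.10). It shares 789 exonic bases with Tmem198b on the other strand.

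Mmp13 (chr9:7272514-7283331), the collagenase that cleaves fibrillar collagen in rodents, was decided by 1 library. Resting KO held 25.9, 30.1 and 303 CPM. The other resting libraries held 24.0 to 39.7 CPM in WT and 32.3 to 45.4 CPM in 3F, and those with LPS 42.3 to 123 in WT, 40.6 to 46.5 in KO and 42.6 to 86.8 in 3F. The response was 1.24 ± 0.69 in WT (adjusted p = 0.199), −1.46 ± 0.69 in KO (adjusted p = 0.132) and 0.82 ± 0.69 in 3F (adjusted p = 0.386), and none was called. Without KO resting replicate 3 the KO response was 0.63 (adjusted p = 0.236), so its direction turned. It was called without KO resting replicate 1 or 2 (−1.94 and −1.92, adjusted p = 0.0404 and 0.0488). The interaction of KO with LPS was −2.71 ± 0.98 (adjusted p = 0.764) with the library and −0.62 (adjusted p = 1.00) without it.

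Mmp2 (gelatinase A, chr8:92827291-92853420), usually a product of stromal cells, was scarce. Counts ran from 2 to 8 in resting WT and 3F libraries and from 31 to 55 in KO libraries with LPS, where they were highest. KO held 0.927, 0.459 and 2.92 CPM at rest and 2.13, 3.98 and 2.78 with LPS, and WT held 0.526, 0.151 and 0.484 at rest and 0.977, 0.887 and 1.03 with LPS. In 3F it was 0.113, 0.464 and 0.468 at rest and 0.586, 1.37 and 1.92 with LPS. The response was 1.30 ± 0.69 in WT (adjusted p = 0.174), 1.14 ± 0.54 in KO (adjusted p = 0.138) and 1.97 ± 0.72 in 3F (adjusted p = 0.0476). The KO response passed without KO resting replicate 3 (2.05, adjusted p = 0.00601). The 3F call was lost when any 3F library except LPS replicate 1 was left out (adjusted p = 0.122 and 0.127 without LPS replicate 2 and 3, and 0.182, 0.0523 and 0.0645 without resting replicate 1, 2 and 3). The stromal markers Dcn and Pdgfrb also rose with LPS, by 2.26 and 2.66 in WT on the log2 scale, to at most 1.91 and 1.47 CPM; 3 of 10 stromal markers were tested and 2 of the 3 were called higher in each genotype, with a summed level of 0.788 to 4.06 CPM in resting WT and 4.05 to 5.79 with LPS. Their part in the result was not tested.

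Timp3 (chr10:86300372-86349506), an inhibitor that stays bound to the matrix, was at the limit of detection, with 0 to 6 counts per library. It had 0 counts in the 3 resting KO libraries, where 3 counts would be 0.185, 0.229 and 0.337 CPM, and no more than 0.484 CPM elsewhere. It was not tested, and differences at this level were not detectable at this depth.

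KO cells were called different from WT in a few members, and 3F cells in none. At rest KO held more Mmp14 and Mmp8 and less Mmp12 than WT, and with LPS less Mmp12. Of 9 tested members, 2 were called higher (5.12% of all genes) and 1 lower (4.27%) in resting KO, and none higher (1.89%) and 1 lower (2.9%) in KO with LPS. In 3F against WT no member was called at rest, where 0% of genes were, nor with LPS, where 0.00881% were. At an unadjusted p under 0.05 no member passed either, but the share of all genes at that level was not counted. KO against 3F shares the KO libraries with these comparisons. It gave 3 members higher (6.79% of genes) and 1 lower (6.1%) at rest, and none higher (1.51%) and 1 lower (2.37%) with LPS.

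Mmp12 was the lower one in all 4 comparisons that involve KO. In resting cells the 254 to 401 CPM of KO lay below the 495 to 967 of WT and the 598 to 902 of 3F. The KO difference on the log2 scale was −1.17 ± 0.27 against WT (adjusted p = 0.0132) and −1.39 ± 0.27 against 3F (adjusted p = 0.00675). With LPS the 124 to 201 CPM of KO lay below the 301 to 512 of WT and the 430 to 462 of 3F, with −1.36 ± 0.27 against WT (2.57-fold lower, adjusted p = 0.0091) and −1.49 ± 0.27 against 3F (adjusted p = 0.0065). The resting call against WT was lost without WT resting replicate 3 (−0.83, adjusted p = 0.0707) and the LPS call without KO LPS replicate 1 or 2 (adjusted p = 0.0546 and 0.0571). The 3F to WT difference was 0.22 at rest (95% interval −0.35 to 0.78) and 0.13 with LPS (−0.44 to 0.69).

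Mmp14 in resting KO cells was level at 34.1 to 36.8 CPM, above the 5.72 to 21.8 of WT and the 8.19 to 12.4 of 3F. The log2 fold change was 1.63 ± 0.34 against WT (3.10-fold, adjusted p = 0.00837) and 1.68 ± 0.35 against 3F (adjusted p = 0.00851). With LPS all 3 KO libraries were still above those of WT and 3F, but the differences of 0.76 ± 0.32 (adjusted p = 0.212) and 0.61 ± 0.32 (adjusted p = 0.369) were not called. Mmp8 in resting KO cells, at 49.0 to 66.8 CPM, also lay above WT (24.5 to 35.3) and 3F (28.1 to 42.0), by 0.97 ± 0.21 (adjusted p = 0.00982) and 0.74 ± 0.21 (adjusted p = 0.0331). The call against WT was lost without WT resting replicate 2 (adjusted p = 0.0586). That against 3F was lost without KO resting replicate 2 or 3 or 3F resting replicate 1 or 3 (adjusted p = 0.0597, 0.0909, 0.0654 and 0.105). Neutrophil markers summed to 15.9, 28.8 and 53.5 CPM in resting KO, the last in the library that stood apart, and to 16.2 to 23.8 in resting WT, with 0 of 6 tested called. The part of these markers in the Mmp8 differences was not tested.

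3F libraries of Mmp14, Mmp8 and Timp2 overlapped those of WT, though some lay outside the WT range. Resting Timp2 was 171 CPM in the shallow 3F library against 265 to 309 in WT. The 3F to WT difference of Mmp14 was −0.05 at rest (95% interval −0.80 to 0.69) and 0.15 with LPS (−0.52 to 0.83). That of Mmp8 was 0.24 (−0.22 to 0.69) and 0.02 (−0.45 to 0.48), and that of Timp2 was −0.22 (−0.59 to 0.15) and −0.13 (−0.50 to 0.24). Without the shallow library the resting differences of Mmp14, Mmp8 and Timp2 were 0.08, 0.35 and −0.01. The libraries of 3F and WT overlapped for every tested member in both states. The share of all genes that overlap was not counted, so this is not a trait of the members. At rest the intervals were wide for Mmp9 (−1.56 to 1.62), Mmp13 (−1.08 to 1.87), Timp1 (−1.44 to 1.98) and Mmp2 (−2.05 to 1.45). Differences of that size could not be detected for these genes.

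Of the inhibitors, none was called between KO and WT. Timp2 in resting KO, at 328 to 432 CPM, was above the 265 to 309 of WT by 0.41 ± 0.17, which was not called (adjusted p = 0.167), and above 3F by 0.62 ± 0.18 (adjusted p = 0.0301). The latter call was lost without KO resting replicate 1 or 2 or 3F resting replicate 3 (adjusted p = 0.0596, 0.0892 and 0.0864). Without both doubtful libraries the difference from WT was 0.52 and passed (adjusted p = 0.0109). Timp1 with LPS was 56.1 to 78.8 CPM in KO, above every WT (9.56 to 43.0) and 3F library (26.2 to 47.7), by 1.29 ± 0.43 against WT (adjusted p = 0.101) and 1.00 ± 0.43 against 3F (adjusted p = 0.242), and neither was called. Mmp2 with LPS likewise was 2.13 to 3.98 CPM in KO against 0.887 to 1.03 in WT, and 1.61 ± 0.55 was not called (adjusted p = 0.107). The stromal marker Pdgfrb was 3.17 to 3.69 CPM in KO with LPS and 1.19 to 1.47 in WT, with 1.31 not called (adjusted p = 0.0604), and its part in the Mmp2 values was not tested.

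Mmp9 and Mmp13 gave differences in resting KO, of 1.03 ± 0.73 and 2.0 ± 0.70 against WT (adjusted p = 0.443 and 0.0894), that turned to −0.72 and −0.09 without KO resting replicate 3. Against 3F they turned from 1.00 and 1.61 to −0.78 and −0.48. The Mmp13 difference from WT was called without KO resting replicate 1 or 2 (2.48 and 2.46, adjusted p = 0.0266 and 0.0291), and so was that of Mmp2 without KO resting replicate 2 (2.21, adjusted p = 0.043). With LPS, KO held less Mmp9 than WT and 3F in all 3 libraries, by −0.89 ± 0.66 and −1.27 ± 0.66 (adjusted p = 0.545 and 0.366). Mmp19 in resting KO, 40.0 to 55.3 CPM, lay below the 58.4 to 63.2 of WT by −0.32 ± 0.15, which was not called (adjusted p = 0.197). The difference of Mmp19 from 3F was −0.42 (adjusted p = 0.0704), and it passed without KO resting replicate 2 (adjusted p = 0.048) or 3F resting replicate 1 (adjusted p = 0.0196). Mmp8 with LPS passed against WT without WT LPS replicate 3 (0.84, adjusted p = 0.0394), and Mmp2 at rest against 3F without KO resting replicate 2 (2.51, adjusted p = 0.0279).

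In these comparisons some macrophage markers also moved. The 9 markers summed to 60660 to 62590 CPM in resting KO against 31910 to 47920 in WT. Their sums after LPS were 71320 to 88030 CPM against 45640 to 60060 CPM. Lyz2, which was called in neither state, made up most of each sum. Its mean was 53930 CPM for KO at rest (WT 35160) and 65090 CPM for KO after LPS (WT 43840). Cd68 and Itgam had lower resting means in KO (866.8 and 149.9 CPM) than in WT (936.4 and 244.5 CPM). Resting means of the other markers were higher in KO. Of the 9 markers, Csf1r and Fcgr1 were called higher and Itgam lower in resting KO against WT. The Fcgr1 difference of 1.79 (adjusted p = 0.0321) was 0.54 and not called without KO resting replicate 3 (adjusted p = 0.286), while Csf1r and Itgam were called without it too. With LPS none of the 9 was called higher and 1, Itgam, lower. Of 4 osteoclast markers tested, of 6 listed, Dcstamp was lower in KO at rest and with LPS (−1.87 and −2.86) and Acp5 higher with LPS (0.96, adjusted p = 0.0326). Osteoclast markers summed to 182, 208 and 479 CPM in resting KO, the last in the library that stood apart. In resting WT they summed to 203 to 260 CPM, and Ctsk made up most of each sum. The part of these markers in the member differences was not tested.

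No member's LPS response was called different between genotypes by the interaction test, in KO against WT (0.00881% of genes called) or 3F against WT (0% called). In KO against WT only Mmp13 had an unadjusted p under 0.05 (0.0136), and in 3F against WT none did. The share of all genes at that level was not counted.

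**Figure D3:**
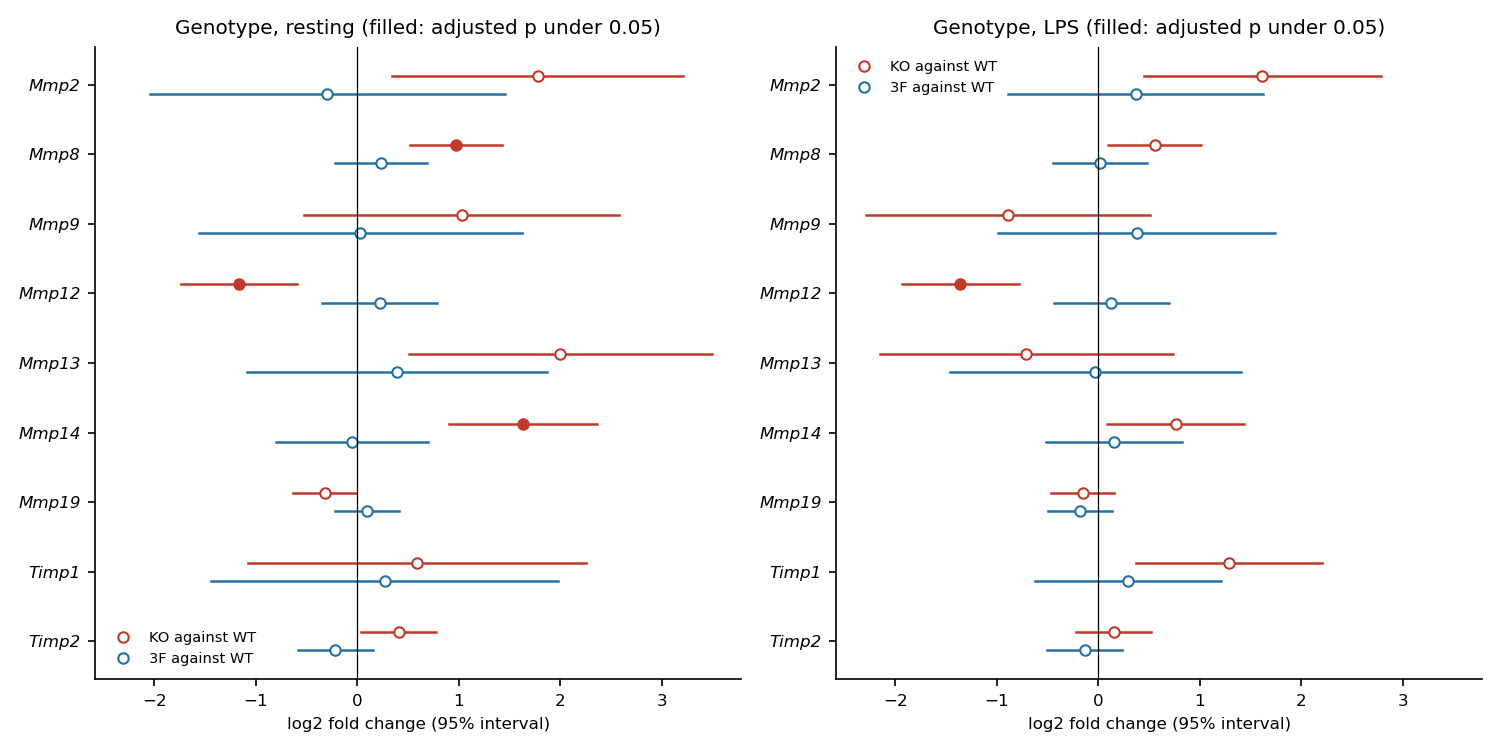
Genotype differences of the 9 tested genes at rest (left) and with LPS (right), as log2 fold change against WT with its 95% interval (n = 3 against 3), KO in red and 3F in blue. Filled points passed an adjusted p of 0.05. Filled points are KO only: Mmp8, Mmp12 and Mmp14 at rest and Mmp12 with LPS.

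Per kb of exon (mean ± SD, n = 3, or the range over libraries), a scale on which genes can be set side by side, the mix of transcripts changed more than its total. MMP transcripts of the 7 genes summed to 164 to 296 CPM per kb in resting WT and 204 to 309 with LPS. Mmp12 made up 74.7% to 81.1% of the sum in resting WT and 36.6% to 48.7% with LPS, while Mmp14 went from 0.714% to 1.68% at rest to 29.9% to 39.4%. In KO with LPS, Mmp14 reached 52.5% to 65.0% and Mmp12 14.8% to 24.2%. In 3F with LPS the shares were 33% to 35.7% for Mmp14 and 42.3% to 43.3% for Mmp12. The KO range lay outside that of the other genotypes for both genes.

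In resting WT the order per kb was Mmp12 (169 ± 62.3), Timp2 (73.4 ± 5.65), Mmp19 (17.5 ± 0.739), Mmp8 (12.1 ± 2.25), Mmp13 (11.2 ± 3.18), Mmp14 (2.67 ± 1.99), Mmp9 (1.67 ± 1.17), Timp1 (0.982 ± 0.315), Mmp2 (0.126 ± 0.0667) and Timp3 (0.0421 ± 0.0483). Neighbours whose libraries overlapped were Mmp8 and Mmp13, Mmp14 and Mmp9, Mmp9 and Timp1, and Mmp2 and Timp3. With LPS the first was Mmp12 in WT (102 ± 26.2, overlapping Mmp14 at 79.3 ± 15.4) and in 3F (111 ± 4.15), but Mmp14 in KO (134 ± 29.3), followed there by Timp1 (78.1 ± 13.4). Timp2 (51.3 ± 5.52) and Mmp12 (39.6 ± 9.69) came next in KO with LPS and overlapped.

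Timp1 went from 0.847% to 1.76% of TIMP transcripts in resting WT to 20.8% to 50.8% with LPS, and to 56.8% to 63.1% in KO with LPS. The ratio of summed MMP to summed TIMP transcripts per kb was 2.28 to 3.98 in resting WT, 1.19, 1.43 and 2.68 in resting KO and 3.49 to 4.56 in resting 3F. The 2.68 is the library that stood apart, and without it the resting KO values lay below those of WT. With LPS it was 2.32 to 4.10 in WT, 1.58 to 1.85 in KO and 2.75 to 3.87 in 3F, with KO below the other groups. The ratio of Mmp14 to Timp2 went from 0.0164 to 0.068 in resting WT to 1.55 to 2.01 with LPS, and to 2.25 to 2.88 in KO with LPS. These ratios are of mRNA and were not tested.

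**Figure D4:**
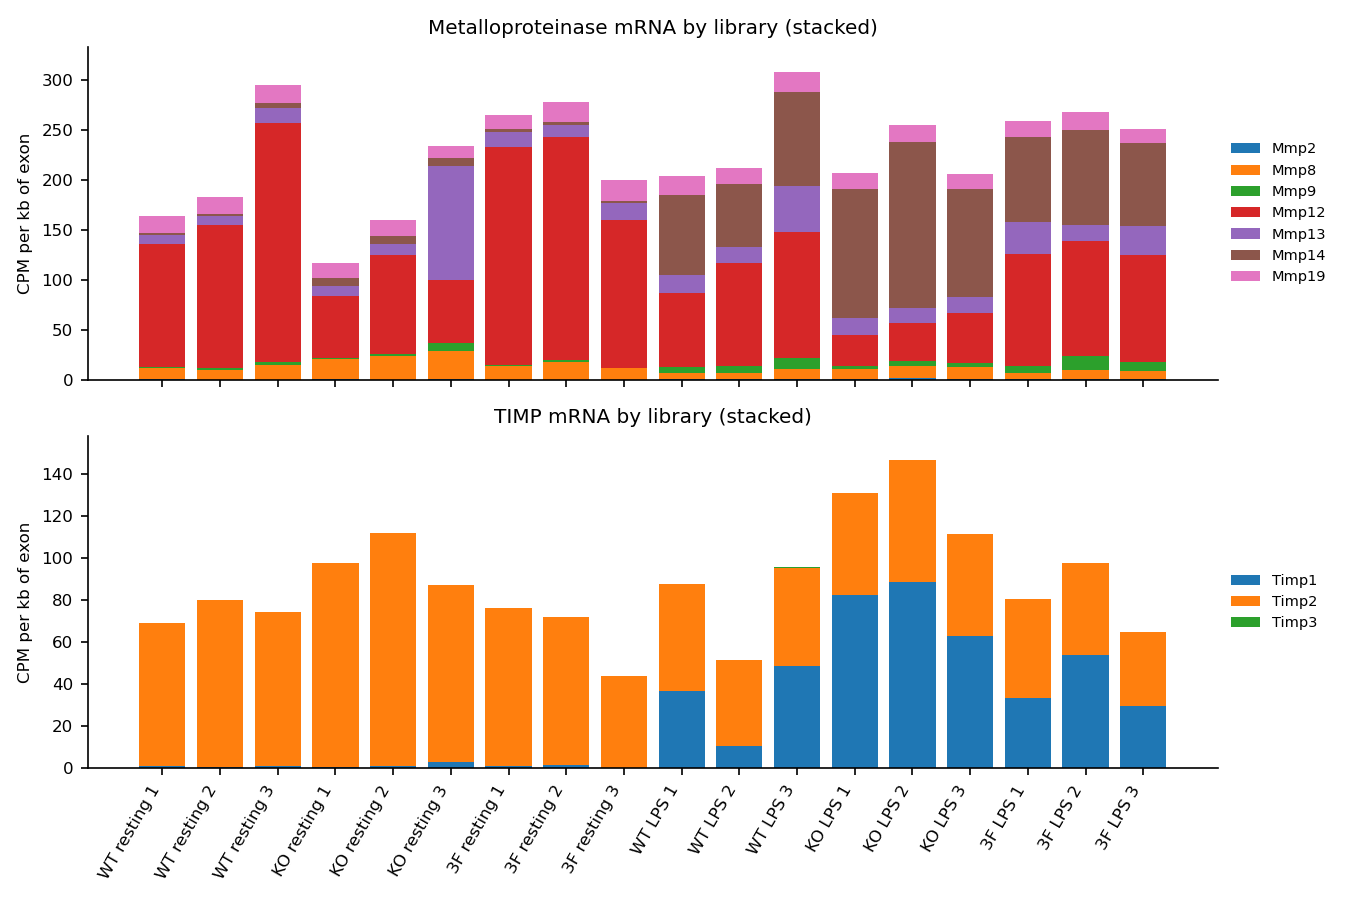
MMP (top) and TIMP (bottom) transcripts in each library, stacked by gene, in CPM per kb of exon. LPS libraries (right) hold large Mmp14 and Timp1 segments that resting libraries lack. The large Mmp13 segment of KO resting replicate 3 stands out among the resting libraries.

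Mmp13, Mmp12 and Mmp8 belong to a cluster of 10 MMP genes on chr9:7272514-7699585, 427.1 kb long. Within it 4 genes were expressed above 1 CPM on average in every group, the 3 members and Mmp27, next to Mmp8. Mmp27 fell with LPS, as Mmp8 did, by 0.91 ± 0.31 in WT, 0.99 ± 0.31 in KO and 1.06 ± 0.31 in 3F on the log2 scale (adjusted p = 0.038, 0.0254 and 0.0175), and was not called between genotypes. Mmp10, which lies between Mmp12 and Mmp8, was near the detection limit. It was called lower with LPS in KO (4 to 10 counts per library at rest, 0 to 1 with LPS, adjusted p = 0.00388) and 3F (4 to 32 and 1 to 6 counts, adjusted p = 0.00227) but not in WT (6 to 7 and 2 to 3 counts, adjusted p = 0.116). Mmp1a, Mmp1b, Mmp3, Mmp7 and Mmp20 had at most 11 counts in any library. The neighbours did not move as a block: at rest KO was higher than WT in Mmp8 and lower in Mmp12.

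**Figure D5:**
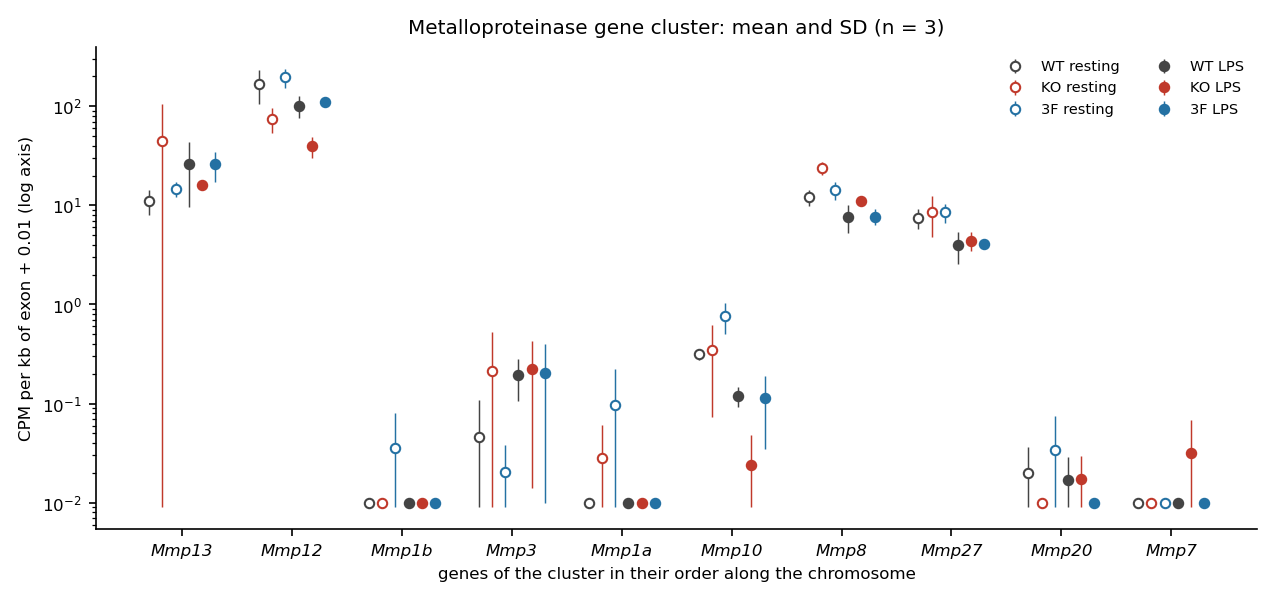
Mean expression of the 10 genes of the MMP cluster in their order along chromosome 9, in CPM per kb of exon plus 0.01 on a log axis, with SD (n = 3). Open points are resting and filled points LPS, in grey (WT), red (KO) and blue (3F). Mmp13, Mmp12, Mmp8 and Mmp27 stand far above the 6 other genes.

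Of 17 other family members listed, 3 were tested (Mmp10, Mmp27 and Mmp28), and none was called in a genotype comparison. With LPS, 1 of 3 was called lower in WT (12.3% of all genes), 2 of 3 in KO (12.6%) and 2 of 3 in 3F (14%). Mmp28 was not called in any comparison, though its LPS response in KO went from 0.01 to 1.86 and passed without KO resting replicate 3 (adjusted p = 0.0225).

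Among 14 genes that activate, dock, inhibit or clear MMPs, 10 were tested. In WT 3 rose with LPS and 2 fell, where 16.3% of all genes tested were called higher and 12.3% lower. Lcn2, which binds and stabilises MMP9, rose by 6.64 ± 0.68 on the log2 scale (adjusted p = 3.53e-06), Serpinb2, an inhibitor of plasminogen activators, by 4.26 ± 0.69 (adjusted p = 0.000281) and Bsg, an inducer of MMPs, by 0.53 ± 0.13 (adjusted p = 0.00763). Plau, the urokinase that makes plasmin, fell by 2.15 ± 0.23 (adjusted p = 5.08e-06), and Lrp1, an endocytic receptor for MMPs, fell by 0.79 ± 0.21 (adjusted p = 0.011). In KO the counts were 3 higher (14.3% of all genes) and 2 lower (12.6%), and in 3F 3 higher (17.2%) and 1 lower (14%). In KO the Lrp1 call was lost without KO resting replicate 3 (−0.60, adjusted p = 0.057).

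In KO against WT, 1 of the 10 genes was called at rest, lower (4.27% of all genes). With LPS 1 was called higher (1.89%) and 2 lower (2.9%). Plau was 346, 484 and 204 CPM in resting KO against 904, 786 and 932 in WT, −1.34 ± 0.22 (adjusted p = 0.00245), and with LPS −1.45 ± 0.22 (adjusted p = 0.00167). Its receptor Plaur was lower in KO with LPS (−1.12 ± 0.22, adjusted p = 0.00766), and Serpinb2 was higher (2.17 ± 0.50, adjusted p = 0.0214). None of the 10 was called in 3F against WT.

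Of 14 ADAM and ADAMTS proteases, relatives of the MMPs that shed membrane proteins or cleave proteoglycans, 9 were tested. With LPS in WT 2 rose (16.3% of all genes) and 4 fell (12.3%). Adam17, the TNF convertase, rose by 1.04 ± 0.11 (adjusted p = 3.33e-06) and Adam9 by 0.39 ± 0.11 (adjusted p = 0.0181). Adam22 fell by 2.52 ± 0.54 (adjusted p = 0.00256), Adamts10 by 0.58 ± 0.15 (adjusted p = 0.00975) and Adam8 by 0.39 ± 0.14 (adjusted p = 0.0496). KO gave 2 higher (14.3% of all genes) and 4 lower (12.6%), and 3F 2 higher (17.2%) and 3 lower (14%). In KO against WT with LPS 1 of 9 was called, Adam8, lower (2.9% of all genes). Its change was −0.75 ± 0.14 (adjusted p = 0.00658).

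Over the 18 libraries the genes whose log2 CPM was most like that of each member, by Pearson's r, were Igsf6 (0.991) and Abcc5 (0.99) for Mmp14, Tmem2 (0.981) and Nln (0.98) for Timp1, Senp2 (0.953) and Herc1 (0.946) for Timp2, and Flna (0.943) and Cox15 (0.942) for Mmp9. For Mmp12 they were Nes (0.927) and Dio2 (0.922), for Mmp8 Mtus1 (0.918) and Inppl1 (0.912), and for Mmp2 AI837181 (0.912) and Il18 (0.903). Mmp13 was most like Palm (0.877) and Parp3 (0.837), and Mmp19 most like Pf4 (0.815) and Umad1 (0.814). Between members, Mmp14 and Timp1 had r = 0.953. The libraries share the LPS contrast and their depth, so these values are a description.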

How the data were processed

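The authors trimmed adapters (cutadapt 1.8.3), removed reads of ribosomal DNA, aligned reads to mm10 (HISAT2 2.1.0) and counted them by strand per gene of Gencode M15 (featureCounts 1.5.3). They deposited raw counts of 21734 protein-coding genes, with an exon length, for 18 directional libraries from rRNA-depleted RNA. No column of another series was present. From these counts, edgeR 4.0.16 (R 4.3.3, limma 3.58.1) kept 11357 genes (filterByExpr), scaled them by TMM (factors 0.812 to 1.15) and fitted all 18 libraries with a coefficient per group. The 11 comparisons were two-sided quasi-likelihood tests with Benjamini-Hochberg adjustment over all genes tested, called under 0.05. Intervals are 95%. SE is the log2 fold change over the square root of F.

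Members, lists and alternatives were chosen with earlier results of these data known. Named beside members were up to 3 list genes called in each direction with the largest change, at average log2 CPM of at least 1, in LPS against resting WT and KO against WT, and the 2 genes most correlated with each member. Mmp10, Mmp28, Ctsk, marker genes and the genes that set a library apart were named after their values were seen. For a symbol on several rows, the row with most counts was used. Gene positions came from Gencode M21 (GRCm38, equal to mm10) and sequences from RefSeq. Replicates of a group differed by more than sampling noise. With 3 mice of each genotype and 3 libraries in each state, the libraries of a genotype cannot all come from different mice. Whether a number marks the same animal at rest and with LPS is not stated. The main tests treated the 18 libraries as independent, so p-values measure the spread between these cultures. Intervals of fold changes include the spread between libraries, and floors cover counting error only. Alternatives were DESeq2 1.42.0 size factors in edgeR, DESeq2's Wald test, no filter, the compared groups alone, a replicate block and each library left out. List and marker genes were also tested without KO resting replicate 3, a choice made after seeing the data. The test of KO against WT with LPS was also run on simulated counts, drawn independently with the fitted dispersions. That simulation held no shared mice and no outlying library, so it does not check the tests for those features.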

Additional observations from a re-analysis of the deposited data

How the results depend on the processing

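The number of members called moved by over 1.5 times in fits of the compared groups alone: from 3 to 1 in KO against WT at rest, from 1 to 4 in KO against WT with LPS, from 4 to 1 in KO against 3F at rest and from 1 to 5 in KO against 3F with LPS. In those fits the resting calls of Mmp14 and Mmp12 in KO against WT were lost (adjusted p = 0.113 and 0.0847) and Mmp14, Mmp9 and Mmp2 were gained with LPS (adjusted p = 0.0444, 0.0463 and 0.0217). In KO against 3F, Mmp12, Mmp8 and Timp2 were lost at rest (adjusted p = 0.0954, 0.16 and 0.259). With LPS, Mmp14, Timp1, Mmp9 and Mmp8 were gained against 3F (adjusted p = 0.0185, 0.0119, 0.00855 and 0.044). The counts stayed within 1.5 times under DESeq2's size factors, DESeq2's Wald test, no filter and the replicate block. Leaving out one library in turn gave 4 to 5 members called for LPS in WT, 4 to 7 in KO and 4 to 6 in 3F, 2 to 5 for KO against WT at rest and 0 to 2 with LPS, 2 to 4 for KO against 3F at rest and 1 with LPS, and 0 for 3F against WT and both interactions.

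Directions turned for values that rest on KO resting replicate 3. The Mmp9 response in KO ranged from −0.12 to 2.14 with one library left out, and was −0.12 and −0.03 without KO resting replicate 1 and 2. The Mmp13 response in KO ranged from −1.94 to 0.63, the latter without replicate 3, and was 0.55 without it and 3F resting replicate 3 together, an alternative chosen after seeing the data. Mmp13 in KO against WT at rest ranged from −0.09 to 2.48, and was −0.09 and −0.07 in the same fits. Of 508 alternatives of member values that were called under at least 1 setting, 430 kept their direction and side of the threshold, 42 lost and 30 gained a call, and 6 turned. For LPS and the interactions the replicate block was the number within a genotype. It gave 6, 5 and 6 members called with LPS in WT, KO and 3F. Mmp12 in WT was gained there (adjusted p = 0.0178), Mmp2 in 3F was lost (adjusted p = 0.0628), and no other call changed. For comparisons of genotypes the block was the number across all groups, which also matches mice of different genotypes. That block changed no call: it gave 3 and 1 for KO against WT at rest and with LPS, 4 and 1 for KO against 3F, and 0 for 3F against WT. It does not show whether the genotype calls hold with libraries of the same mouse matched. Deviations of same-numbered libraries of a genotype correlated at 0.028 to 0.318 (median 0.106, 9 pairs). Those of differently numbered libraries of a genotype correlated at −0.268 to 0.121 (median −0.059, 18 pairs). The values were higher for same numbers, but the ranges overlapped and the labels do not state pairing. The main tests therefore did not pair the libraries, though same-numbered ones may come from the same mouse. Depth limits Timp3, Mmp2 and resting Timp1.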

Other observations

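Of 8 secreted cathepsins and elastases, 6 were tested, and with LPS in WT 1 rose, Ctsz (0.73 ± 0.16, adjusted p = 0.00344), and 1 fell, Ctsd (−0.42 ± 0.15, adjusted p = 0.0458). Of all genes tested 16.3% were called higher and 12.3% lower there, so such counts are near those shares. Ctsk, a collagenolytic cathepsin of osteoclasts, was called lower with LPS in KO alone (−0.84, adjusted p = 0.0377), where resting KO held 171, 195 and 468 CPM, the last in the library that stood apart. Without that library the change was −0.24 (adjusted p = 0.318). Of 12 matrix substrates, 6 were tested, and with LPS in WT 1 rose (16.3% of all genes), Col4a2, a basement membrane collagen (2.03 ± 0.33, adjusted p = 0.000253). No gene of either list was called in KO against WT, but Spp1, counted among the substrates, was called lower at rest without KO resting replicate 3 (−1.08, adjusted p = 0.00697).

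Among 12 AP-1 and NF-κB factors, all tested, 3 rose (16.3% of all genes) and 2 fell (12.3%) with LPS in WT. Nfkb2 rose by 1.39 ± 0.16, Relb by 1.26 ± 0.22 and Nfkb1 by 0.74 ± 0.11 (adjusted p = 1.08e-05, 0.000481 and 0.000143). Fosb fell by 5.53 ± 0.60 and Fos by 0.71 ± 0.24 (adjusted p = 7.02e-06 and 0.0396). In KO against WT at rest 2 were called, both higher (5.12% of all genes), Nfkb2 (0.70 ± 0.16, adjusted p = 0.0111) and Nfkb1 (0.52 ± 0.11, adjusted p = 0.009). Without KO resting replicate 3, Relb (0.81, adjusted p = 0.0195) and Junb (0.68, adjusted p = 0.0337) were called higher at rest too. With LPS Nfkb1 was higher (0.59 ± 0.11, adjusted p = 0.00612) and Fos lower (−0.96 ± 0.25, adjusted p = 0.0362), where 1.89% of all genes were called higher and 2.9% lower.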
